A study of Nasonia vitripennis x Nasonia giraulti with 6 samples.

Results

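The genes described here were the 200 whose transcript level varied least across the whole-body libraries of female F1 hybrids of 2 parasitoid wasp species, Nasonia vitripennis (abbreviated Nv) and Nasonia giraulti (Ng). They were taken from 16505 genes by a fixed rule. Counts were divided by the library total to give counts per 1000000 counts (CPM), the 100 most abundant genes were set aside, and genes were kept when their mean was at least 50 CPM and their value was a whole number in every library. This left 3588 eligible genes, and the 200 with the lowest coefficient of variation (CV, the SD over the mean) of CPM over the 5 libraries were taken. They were 5.57% of the eligible genes, and the other 3388 eligible genes serve as their comparison.

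Genes with a steady transcript level across cell types and conditions are known from many organisms as housekeeping genes. Their products carry out tasks that nearly every cell needs, such as protein turnover, transport and RNA processing. Such genes are used as reference genes for scaling other measurements. A low CV over the libraries used here does not show that a gene is one of them. Nasonia, like other Hymenoptera, is haplodiploid: males develop from unfertilised eggs and females from fertilised ones, so that hybrid daughters of reciprocal crosses carry the same pair of nuclear genomes and differ in which species gave the egg and its cytoplasm. A gene whose level differs between the directions of the cross is therefore a candidate for a parent-of-origin or cytoplasmic effect.

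F1VG daughters had an Nv mother (strain AsymCX) and an Ng father (strain R16A), and F1GV daughters had an Ng mother (strain R16A) and an Nv father (strain AsymCX). Every library came from a pool of 10 whole adult females at 24 h after emergence, an age and sex that both crosses shared. The labels name 3 replicates of each cross as independently collected. The libraries were replicates 1, 2 and 3 of F1VG and replicates 1 and 3 of F1GV, and replicate 2 of F1GV, which the study set aside for poor mapping, was not analysed here. In whole bodies, fewer cells of a type and less RNA per cell cannot be told apart. The genes are known here only by identifiers of the official gene set OGS2, and none of these was matched to a name, so functions are not given for single genes.

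The libraries held 35337246 to 55707560 estimated counts. The replicate 1 libraries of both crosses stood apart from the other 3. In replicate 1 of each cross 16.0% of all counts fell on the 100 most abundant genes, and in the other libraries 19.6% to 20.1% did. Over 12435 genes, the quasi-likelihood test of edgeR called 3 between F1VG and F1GV (0.0241%) in a model of the cross alone. A model that also held a term for replicate 1 called 85 (0.684%) between the crosses. In that model 6716 (54.0%) were called between replicate 1 and replicates 2 and 3.

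The values that chose the genes are given as a description, without a test. The CV of the 200 genes lay between 1.35% and 6.19% with a median of 4.95%, and that of the other eligible genes lay between 6.24% and 107% with a median of 19.4%. The highest library exceeded the lowest by 1.04-fold to 1.19-fold in the 200 genes (median 1.13-fold). In the other eligible genes the median of this ratio was 1.56-fold, and it reached 2 or more in 681 genes (20.1%). The limit fell within a continuous distribution. The last 5 genes inside it, Nasvi2EG007806, Nasvi2EG019940, Nasvi2EG001547, Nasvi2EG016554 and Nasvi2EG002593, had CVs of 6.15% to 6.19%, and the next 5 outside it, Nasvi2EG022085, Nasvi2EG021642, Nasvi2EG008316, Nasvi2EG014451 and Nasvi2EG017592, had CVs of 6.24% to 6.29%.

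**Figure D1:**
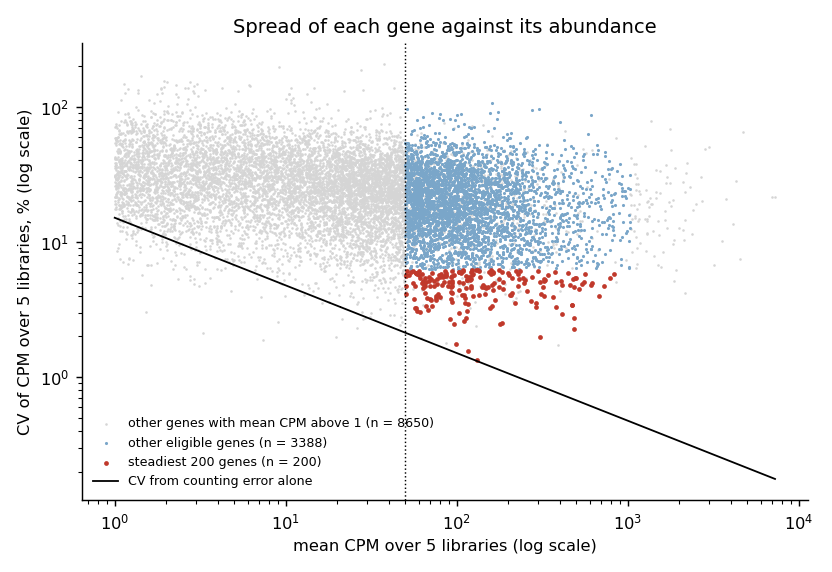
CV of CPM over the 5 libraries (percent, log scale) against mean CPM (log scale), 1 point per gene, for the steadiest 200 genes (red), the other 3388 eligible genes (blue) and the remaining genes with a mean above 1 CPM (grey). The line is the CV that counting error alone would give at these library totals, and the dotted line marks 50 CPM. The 200 genes form the lower edge of the eligible genes, from 1.35% to 6.19%, at all levels of abundance.

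The steadiest genes were spread over the range of abundance. Their mean level ran from 50.3 to 833 CPM (median 116 CPM), against up to 1034 CPM (median 103 CPM) in the other eligible genes. When the eligible genes were divided by mean CPM into 4 classes of 897 genes, 38, 46, 54 and 62 genes of these classes were among the 200, from the least to the most abundant class. The median CV of all eligible genes in these classes was 20.3%, 19.3%, 17.8% and 16.4%. The steadiest genes were thus somewhat more frequent among abundant genes, and every class held some.

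Only a few of the 200 genes had a CV near that of counting error. With the counts seen here, sampling of reads alone would give the 200 genes CVs of 0.523% to 2.13% (median 1.40%). The observed CV was a median of 3.48 times this value in the 200 genes, against 13.8 times in the other eligible genes. It was at or under 2 times the counting value in 17 of the 200 genes and above 5 times in 43. In the other eligible genes the lowest ratio was 3.06. Because the rule chose by CV, these contrasts with the other eligible genes follow from the choice and are not a result. These values cover counting error only, since the reads carried no molecular identifiers that would count each molecule once.

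The gene of lowest CV, Nasvi2EG034756, had 128.8, 131.2 and 131.6 CPM in F1VG replicates 1, 2 and 3, and 133.5 and 129.8 CPM in F1GV replicates 1 and 3. Its CV of 1.35% was 1.02 times the counting value of 1.32%. As the lowest CV of 3588 genes it was picked for being small, so this ratio does not show that read sampling was its only variation. Nasvi2EG013798 had 114.9, 114.4 and 116.5 CPM in F1VG and 119.0 and 115.7 CPM in F1GV (CV 1.56%). Nasvi2EG004248 had 99.9, 98.8 and 96.9 CPM in F1VG and 101.0 and 101.1 CPM in F1GV (CV 1.77%). In this gene the 3 F1VG libraries were all below the 2 F1GV libraries, although by under 5 CPM at most. Nasvi2EG000765, at a higher level, had 298.4, 307.3 and 314.1 CPM in F1VG and 309.1 and 302.2 CPM in F1GV (CV 1.99%). Nasvi2EG006537 had 489.2, 491.2 and 484.8 CPM in F1VG and 472.4 and 503.2 CPM in F1GV (CV 2.28%), with both the lowest and the highest library in F1GV. The next 5 genes, Nasvi2EG000449, Nasvi2EG001198, Nasvi2EG012916, Nasvi2EG017061 and Nasvi2EG002737, had mean levels of 91.8 to 184.9 CPM and CVs of 2.45% to 2.70%.

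**Figure D2:**
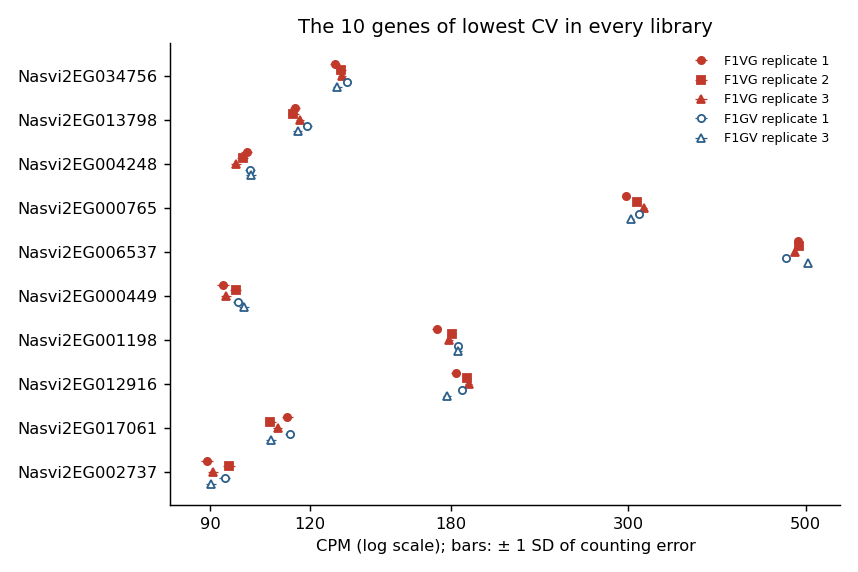
CPM (log scale) of the 10 genes of lowest CV in each library, with F1VG replicates as filled and F1GV replicates as open symbols, and bars of 1 SD of counting error. The libraries of each gene lie close together, and the gene at the top, Nasvi2EG034756, ranges from 128.8 to 133.5 CPM.

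The most abundant of the 200 genes had the deepest counts, and in the 5 at the top the spread was 6.83 to 11.1 times the counting value. Nasvi2EG023147 had 848.1, 751.8 and 854.9 CPM in F1VG and 830.9 and 878.6 CPM in F1GV (CV 5.82%). The low library was F1VG replicate 2, and the others lay within 50 CPM of each other. Nasvi2EG006161 had 720.6, 822.3 and 818.2 CPM in F1VG and 785.8 and 815.4 CPM in F1GV (CV 5.38%). Here the replicate 1 libraries were the lower in both crosses. Nasvi2EG003713, Nasvi2EG016507 and Nasvi2EG000312 averaged 730, 675 and 620 CPM, with CVs of 4.74%, 3.96% and 4.99%.

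No library held the extremes of all 200 genes, but the libraries were not alike. F1GV replicate 3 was the lowest library in 68 of the 200 genes and the highest in 26, and F1GV replicate 1 was the highest in 57 and the lowest in 21. The F1VG replicates 1, 2 and 3 were the highest in 24, 44 and 49 genes and the lowest in 42, 43 and 26. In F1GV this was not particular to the 200 genes. Among the other 3388 eligible genes F1GV replicate 3 was the lowest in 1469 and the highest in 528. F1GV replicate 1 was the highest in 1409 of them and the lowest in 629. The F1VG replicates 1, 2 and 3 were the highest in 618, 356 and 477 of them and the lowest in 430, 377 and 483. In F1VG the balance thus differed from that in the 200 genes, with replicate 1 more often highest than lowest. The summed level of the 200 genes was 36063, 36415 and 36712 CPM in F1VG and 36790 and 35627 CPM in F1GV, or 3.56% to 3.68% of all counts. As log2 CPM minus the mean of each gene, the median of the 200 genes was between -0.034 (F1GV replicate 3) and 0.019 (F1GV replicate 1). In the other eligible genes it was between -0.16 and 0.17 in these same libraries, and 0.13 in F1VG replicate 1.

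**Figure D3:**
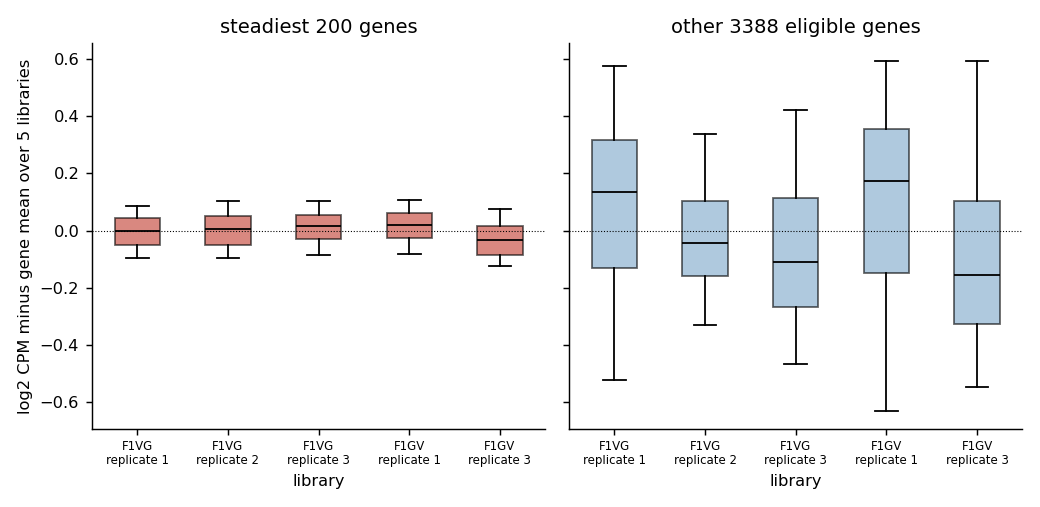
Log2 CPM minus the mean of the gene over the 5 libraries, by library, for the steadiest 200 genes (left) and the other 3388 eligible genes (right). Boxes show the median and quartiles and whiskers the 5th and 95th percentiles. The boxes of the 200 genes lie near 0 in every library, whereas those of the other genes lie higher in replicate 1 of both crosses, with medians of 0.13 (F1VG) and 0.17 (F1GV).

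Whether the direction of the cross moved these genes could only be described, because the same 5 libraries chose them. The log2 ratio of mean CPM, F1VG over F1GV, lay between -0.13 and 0.16 in the 200 genes (median 0.0094), against -2.63 to 2.02 in the other eligible genes. The median absolute ratio was 0.045 in the 200 genes and 0.11 in the others. The F1VG and F1GV libraries did not overlap in 36 of the 200 genes (18.0%), of which 24 were higher and 12 lower in F1VG. Over all 12435 genes the libraries did not overlap in 10.9%, with 5.95% higher and 4.91% lower in F1VG, and over the other 3388 eligible genes they did not overlap in 235 (6.94%). The rule used these libraries, and nothing is read from the comparison of these shares.

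On the scale of TMM (trimmed mean of M-values) factors the log2 fold changes of the 200 genes between the crosses, F1VG over F1GV, were -0.15 to 0.14, with standard errors of 0.15 to 0.20. Genes chosen for a low CV over these libraries could hardly be called between them. The calls are therefore given without being read as a result: with edgeR 0 of the 200 genes had an adjusted p under 0.05, where 0.0241% of all genes did, 0 had an unadjusted p under 0.05, and DESeq2 called 0. In a model that also held a term for replicate 1, 0 of the 200 and 0.684% of all genes were called between the crosses.

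Among the 36 genes whose crosses did not overlap, the 5 with the largest fold change were examined by library. The SEs given are from the edgeR fit of the cross alone, which shares information over all genes, and are not the spread of the CPM values. Nasvi2EG011156 had 63.2, 61.3 and 64.2 CPM in F1VG and 56.4 and 56.6 CPM in F1GV (log2 fold change 0.14 ± 0.17 SE). With a term for replicate 1 the fit gave this gene 0.12 ± 0.099. Nasvi2EG010865 had 126.3, 122.8 and 124.9 CPM in F1VG and 116.1 and 111.4 CPM in F1GV (0.12 ± 0.15). Both were higher in every F1VG library than in any F1GV library. In the other direction, Nasvi2EG024166 had 125.7, 119.9 and 116.6 CPM in F1VG and 134.7 and 129.3 CPM in F1GV (-0.15 ± 0.15). Nasvi2EG002593 and Nasvi2EG018234 were likewise lower in every F1VG library, with log2 fold changes of -0.15 and -0.13.

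The replicate 1 libraries differed from replicates 2 and 3 over much of the transcriptome, for a reason that was not tested. The difference was smaller in the 200 genes on the CPM scale that chose them. The log2 ratio of mean CPM, replicate 1 over replicates 2 and 3, was between -0.15 and 0.15 with a median of 0.011. In the other eligible genes the median was 0.25 and the median absolute ratio 0.43. The replicate 1 libraries did not overlap with the rest in 53 of the 200 genes (26.5%), 37 higher and 16 lower. Over all 12435 genes the share was 71.6%, with 41.4% higher and 30.3% lower, and over the other eligible genes it was 79.3%. Since the rule used these libraries this is a description as well.

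On the TMM scale the same genes were not level. There the log2 fold change of replicate 1 over replicates 2 and 3 had a median of -0.12 in the 200 genes and of -0.030 in all genes tested, and it was 0.017 in the 200 genes and 0.11 in all genes with scaling by total counts. Scaling thus set the direction. With TMM scaling the edgeR fit put 3 of the 200 genes under an adjusted p of 0.05, all lower in replicate 1, where 29.3% of all genes were called lower and 24.7% higher. This count is a description too, because the rule used the same libraries, and the p-values are not given. Nasvi2EG014315 had 102.3, 116.3 and 108.6 CPM in F1VG replicates 1, 2 and 3 and 101.2 and 113.1 CPM in F1GV replicates 1 and 3 (log2 fold change -0.28). Nasvi2EG014563 had 78.3, 90.6 and 85.0 CPM in F1VG and 83.8 and 91.1 CPM in F1GV (-0.28). Nasvi2EG011245 had 172.1, 191.5 and 192.3 CPM in F1VG and 178.9 and 192.1 CPM in F1GV (-0.27). In all 3 genes both replicate 1 libraries lay below the other 3. These fold changes are on the TMM scale. The log2 ratios of mean CPM, replicate 1 over replicates 2 and 3, were -0.15, -0.13 and -0.13 in the same order. Nasvi2EG000369 and Nasvi2EG006161 followed with log2 fold changes of -0.27 and -0.26. Describing these genes as insensitive to the replicate therefore rests on the scale, and they are called here the genes of lowest CV.

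The same libraries were also compared in pairs, as a description. The root mean square log2 difference over the 200 genes was 0.099 ± 0.010 in 6 pairs between crosses and 0.099 ± 0.0072 in 4 pairs within a cross (SD over pairs, which share libraries). It was 0.10 ± 0.0053 in the 6 pairs of a replicate 1 library with another and 0.096 ± 0.013 in the 4 remaining pairs. In the other eligible genes the same split gave 0.65 ± 0.081 and 0.29 ± 0.071.

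Genes were also chosen without a library and then read in that library. The reading was not independent of the choice, since a similar library often remained in it. In the other eligible genes the 2 replicate 1 libraries differed by a root mean square of 0.23, against 0.65 for replicate 1 with another. Leaving out 1 replicate 1 library thus kept the other in the choice. In each case the 200 genes of lowest CV over 4 libraries were compared with the remaining eligible genes, as the absolute log2 difference between the library left out and the mean of the other 4. The median was 0.076 in the chosen genes against 0.30 in the others for F1VG replicate 1, 0.10 against 0.18 for F1VG replicate 2, and 0.087 against 0.27 for F1VG replicate 3. It was 0.092 against 0.35 for F1GV replicate 1 and 0.16 against 0.32 for F1GV replicate 3. The chosen genes lay nearer in all 5 libraries, with a mean of the medians of 0.10 ± 0.031 in the chosen genes and 0.28 ± 0.067 in the others (SD over 5 libraries, which share the data of the choice). The 200 genes of the full rule had 0.059 ± 0.0064 when read in the libraries that chose them.

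Between 91.0% and 99.0% of the chosen genes were within 1.25-fold of the other libraries in the one left out, against 45.6% to 78.0% of the others. The share was lowest for F1GV replicate 3, where the chosen genes also lay to one side, with a median log2 difference of -0.13. Genes are not replicates, and no p-value is given for these differences.

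**Figure D4:**
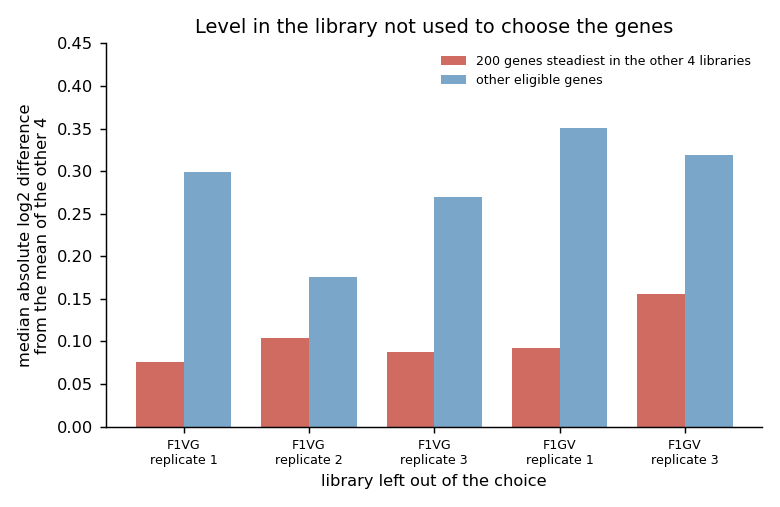
Median absolute log2 difference between the library left out and the mean of the other 4, for the 200 genes of lowest CV in those 4 libraries (red) and the remaining eligible genes (blue), by library left out. The red bars, from 0.076 to 0.16, are below the blue bars, from 0.18 to 0.35, in all 5 libraries.

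Genes were also chosen within 1 cross and read in the other. The 200 genes of lowest CV over the 3 F1VG libraries, 87 of them among the steadiest 200, had a median absolute log2 difference of 0.092 between F1GV and F1VG, against 0.10 in the other eligible genes. Of these 200 genes 95.5% were within 1.25-fold, against 90.8% of the others. The difference between the 2 F1GV libraries had a median absolute size of 0.18 on the log2 scale in the chosen genes and 0.53 in the others. The genes chosen in F1VG lay closer between the F1GV replicates, while the step between crosses was of similar size in both classes. That closeness was not independent of the choice. Both the 3 F1VG and the 2 F1GV libraries set replicate 1 beside other replicates, and replicate 1 stood apart in both crosses.

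Genes were chosen on replicates 2 and 3 and read in replicate 1 in the same way. The 200 genes of lowest CV over these 3 libraries, which included 43 of the steadiest 200, had a median absolute log2 difference of 0.33 in the replicate 1 libraries, against 0.40 in the other eligible genes. In replicate 1, 98 of them (49.0%) were within 1.25-fold, against 39.7% of the others. The 2 replicate 1 libraries differed from each other by a median of 0.096 in the chosen genes and 0.091 in the others. With both replicate 1 libraries withheld, the chosen genes thus lay only slightly nearer than the others, unlike when a single library was left out.

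Which genes were the steadiest depended on the choices in the rule. Of 20 other ways of choosing 200 genes, the SD of log2(CPM + 1) kept 198 of the original genes, subtracting the counting variance 197 and thinning to the smallest library 186. Scaling mattered more than these: TMM factors kept 79, relative log expression factors 87 and upper-quartile factors 20. Another measure of spread, the median absolute deviation over the median, kept 80. Choosing on the F1VG libraries alone kept 87, and on replicates 2 and 3 alone 43. Leaving out a library kept 109 (F1GV replicate 3) to 156 (F1VG replicate 1). None of the 200 genes was chosen in all 20, each was chosen in at least 5, and 86 were chosen in 15 or more.

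**Figure D5:**
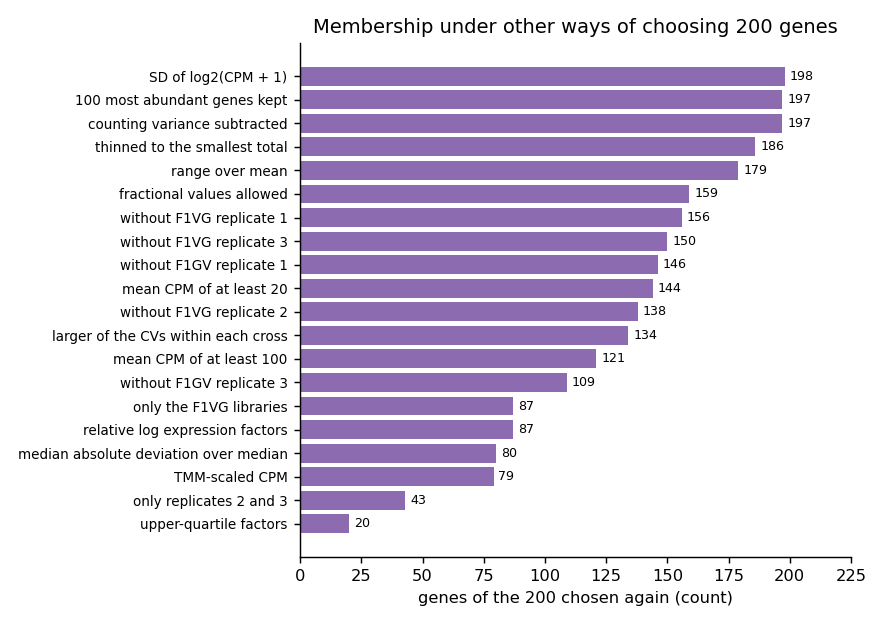
Number of the 200 genes that were chosen again (count) under each of 20 other ways of choosing 200 genes. The number ranges from 20 with upper-quartile factors to 198 with the SD of log2(CPM + 1) as the measure of spread.

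The genes that ranked best over all 20 ways were Nasvi2EG017061, Nasvi2EG009482, Nasvi2EG013798 and Nasvi2EG034756, each chosen in 19. Nasvi2EG017061 had 112.3, 107.0 and 109.3 CPM in F1VG and 113.2 and 107.2 CPM in F1GV. Its replicate 1 libraries were slightly higher than the rest in both crosses. Nasvi2EG009482 averaged 103 CPM, and Nasvi2EG004966, at 475 CPM, was also chosen in 19 ways. Nasvi2EG007692, Nasvi2EG016864, Nasvi2EG012916 and Nasvi2EG004964 were chosen in 18 and Nasvi2EG000765 in 17, at mean levels of 114 to 306 CPM. The ranking partly reflects abundance, because 79 of the steadiest genes were not eligible in the way that set a minimum of 100 CPM. All genes named here averaged above 100 CPM. Nasvi2EG004248, at 99.5 CPM, was also chosen in 18 ways, but its mean rank was 131.7.

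Consecutive OGS2 identifiers were used as a rough sign of neighbouring genes, since no coordinates were used here. Among 1010 consecutive pairs of eligible genes, 7 held a pair of the 200, and 111 held 1 of them beside another eligible gene. The 7 pairs took in 13 genes, among them a run of Nasvi2EG013798, Nasvi2EG013799 and Nasvi2EG013800 at mean levels of 116, 376 and 62.8 CPM. The other pairs were Nasvi2EG004591 with Nasvi2EG004592, Nasvi2EG007090 with Nasvi2EG007091, Nasvi2EG015021 with Nasvi2EG015022, Nasvi2EG016028 with Nasvi2EG016029, and Nasvi2EG019939 with Nasvi2EG019940. The pairs did not share a pattern in their small deviations. Nasvi2EG007090 was higher and Nasvi2EG007091 lower in both replicate 1 libraries than in the other 3, whereas Nasvi2EG016028 and Nasvi2EG016029 were both highest in F1VG replicate 3 and both lowest in F1VG replicate 2.

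None of the 200 genes was on the lists of super cis genes, which in hybrids express only or nearly only the allele of 1 species. Of 50 genes listed for the Nv allele 7 were eligible, and the steadiest of these ranked 1697 by CV (17.7%). Of 11 listed for the Ng allele none was eligible, because none reached 50 CPM.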

How the data were processed

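Total RNA of pools of female F1 hybrids was sequenced from TruSeq v2 libraries made with 2 µg of RNA. The authors checked the reads with FastQC, trimmed them with Trimmomatic, aligned them with TopHat2 2.0 and summarised them over OGS2 genes (Cufflinks 2.1.0 is named in the submitters' processing notes). Which tool gave the table is not given in the sources used here, nor whether counting used strand. The deposited table holds estimated counts by gene without scaling to depth or length, and 86.0% of its values were whole numbers. Every one of the 5 value columns was matched to a sample title.

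CPM was count over column total, and its spread was an SD over 5 libraries. The whole-number clause left out 850 genes that otherwise qualified. Values were rounded for the tests, which used R 4.3.3, edgeR 4.0.16 (quasi-likelihood test, TMM factors, genes above 1 CPM in a cross, Benjamini-Hochberg threshold 0.05), limma 3.58.1 and DESeq2 1.42.0, and were fitted over 12435 genes. Python 3.11.15 was used for the remainder. Only the edgeR fit between the crosses was tried on simulated counts, which held no replicate 1 difference. Fold changes are F1VG over F1GV or replicate 1 over replicates 2 and 3.

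Members, lists and tests were chosen with earlier results of these data known, among them the replicate 1 difference. Genes named were the 10 of lowest CV, the 5 most abundant, 5 on each side of the limit, the 5 with the largest non-overlapping cross change, the 5 with the largest replicate 1 change, the 10 of best mean rank, those with consecutive identifiers and any super cis gene. Of the 16505 identifiers, 0 were found in the reference gene table (assembly Nvit_psr_1.1), so no names, sequences or coordinates were used.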

Additional observations from a re-analysis of the deposited data

How the results depend on the processing

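Calls among the 200 genes rest on the libraries that chose them, so their counts are given as values and say nothing of stability: between the crosses 0 were called in each of 16 alternatives. The number called among all genes, 3, became 66 with DESeq2 and 85 with a term for replicate 1, and 0 to 6 when a library was left out, with 0 without F1VG replicate 2 or 3 and 6 without F1GV replicate 3. The other alternatives gave 2 to 4. With the replicate block 16 genes were called. Deviations from the cross mean correlated at 0.83 between the replicate 1 libraries and at 0.76 between the replicate 3 libraries. With only 2 F1GV libraries, their deviations are the same values with opposite sign, so the correlations are not separate. The replicate numbers were not taken to pair the libraries. For replicate 1 against replicates 2 and 3, the 3 called members became 0 with total counts, relative log expression factors or the sum of the members, 32 when scaled by the upper quartile and 7 without cross in the model. Of the 200 genes, 79 were chosen again with TMM factors, 20 with upper-quartile factors, 87 with relative log expression factors, 80 by the median absolute deviation over the median, 121 with a minimum of 100 CPM, 87 on F1VG alone, 43 on replicates 2 and 3 alone and 109 to 156 when a library was left out. The mean over libraries of the median absolute log2 deviation was 0.059, and 0.081 with TMM factors, 0.076 with relative log expression factors and 0.10 when genes were chosen without the library read. The causes were not tested. Only 3 and 2 libraries were compared, replicate 1 stood apart in both crosses, and the cross test was not run at reduced depth.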

Other observations

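The clauses of the rule left out some genes of equal steadiness. Had genes with a fractional value been allowed, 41 of them would have been among the 200 of lowest CV. Their median CV, over the 850 left out, was 19.3%, against 18.6% in the eligible genes. Had the 100 most abundant genes been kept, 3 of them would have been among the 200, and the lowest CV in that class was 4.16% with a median of 18.7%.

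The highest library was under 1.2-fold above the lowest in all 200 genes, and in 139 of the other eligible genes as well.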
